A study of Caenorhabditis elegans with 24 samples.

Results

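The heat response of wildtype Caenorhabditis elegans was read from 7 RNA-seq libraries, chosen by their sample titles from the 24 of the series: 4 libraries of N2 (Bristol) animals after 3 h at 37°C and 3 libraries of N2 animals after 3 h at 20°C. Both groups carried no allele or transgene, were synchronized with hypochlorite, developed at 20°C on E. coli OP50 and were taken on day 1 of adulthood, when hermaphrodites carry germ cells, oocytes and embryos beside their somatic tissues. RNA came from whole animals, so that fewer cells of a type and less RNA per cell cannot be told apart in any result. Within a temperature each library was an independent replicate. Whether same-numbered libraries of both temperatures shared a population was not stated. The rest of the series, hlh-30(tm1978) mutants and rescued animals with HLH-30 restored in neurons under the rab-3 promoter, was used only to set the wildtype response beside theirs.

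Heat unfolds proteins, and cells answer through HSF-1, the heat shock transcription factor, which switches on genes for chaperones. Small heat shock proteins hold unfolded chains, HSP70 proteins bind and release them with the help of J-domain proteins and HSP110 exchange factors, HSP90 finishes the folding of many regulators, and the ring-shaped CCT chaperonin folds actin and tubulin. In worms the intestine is at once the gut, the fat store, the main site of defence against pathogens and the source of yolk for oocytes, so that whole-animal RNA holds a large share of intestinal transcripts.

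The libraries did not stand alike. The file labelled 20°C replicate 1 held the same count as 37°C replicate 4 at 46756 of 46756 genes and was left out. Totals were 11207383 counts in 37°C replicate 1, 25476551 to 28091186 in the other 37°C libraries and 13843240 to 14396084 in the 20°C libraries, so that depth and temperature cannot be told apart except through 37°C replicate 1, whose value is given beside the others. Within 37°C, replicates 1 and 2 were above replicates 3 and 4 in the summed level of oocyte genes, at 14240.2 and 14061 CPM (counts-per-million, scaled by TMM) against 8684 and 8459 CPM. Within 20°C, replicate 4 had the highest level of yolk genes, 159552 CPM against 81381 and 110913 CPM in replicates 2 and 3, and the lowest of oocyte genes, 3287 CPM against 6850.2 and 5169.6 CPM. Of the tissue markers, those of intestine summed to 2198–4398 CPM at 37°C and 25247–50732 CPM at 20°C, and all 5 tested were called lower. Nearly all of that sum was the yolk gene vit-2, so it mostly restates the yolk level. The other tested markers had log2 fold changes from -1.90 (ifb-2) to -4.27 (asp-1). Markers of oocytes and embryos summed to 2219–3846 CPM at 37°C and 458–1135 CPM at 20°C, with most of the 37°C sum from the eggshell gene cbd-1. Of these 4 markers 3 were called higher, and oma-1 was not called (-0.07). Those of muscle summed to 952–2479 CPM at 37°C and 1207–1742 CPM at 20°C. No marker of any tissue was at 0 in all 7 libraries, and markers of sperm summed to at most 31.2 CPM at 37°C and 20.3 CPM at 20°C.

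Under the TMM scaling, which centres the typical gene near no change, about as many genes were called higher as lower. Of 13482 genes tested, 4328 (32.1%) were called at an adjusted p under 0.05 (quasi-likelihood test in edgeR, p-values adjusted by Benjamini-Hochberg over all genes tested, as throughout): 2029 (15%) were higher and 2299 (17.1%) lower at 37°C, around a median log2 fold change of 0.01. Scaled by library size alone, 1603 were higher and 2669 lower around a median of -0.10. At least 2-fold changes were found for 1231 of the higher and 1497 of the lower genes. A fitted log2 fold change of 4 (16 times) was passed by 193 higher genes, 144 of which had at most 3 counts in every 20°C library and so no measured fold, which leaves 49, and by 17 lower genes, none with so few counts at 37°C. The values of the 4 libraries at 37°C lay wholly above those of the 3 at 20°C for 2652 genes (19.7%) and wholly below for 2855 (21.2%), including 97.5% of the genes called higher and 96.1% of those called lower. Of the single libraries left out, 20°C replicate 3 lowered the higher count most (1343 higher, 1807 lower) and 37°C replicate 1 the lower count most (1494 higher, 1659 lower). Unless another value is given, n is 4 libraries at 37°C and 3 at 20°C. Errors are approximate standard errors (SE), the absolute log2 fold change divided by the square root of the test's F statistic.

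By level at 20°C the calls divided as follows, which is a description only, since that level is also the denominator of the change and genes near 0 have no room to fall. Among 1703 genes under 1 CPM at 20°C, 24.5% were called higher and 0.705% lower. Genes were tested at a mean count of 10 or more over 23 libraries. Genes near 0 at 20°C reached that mean mainly through heated libraries, so this group was partly chosen by its rise. Among 5653 genes of 10 to 100 CPM at 20°C the shares were 14.4% higher and 21.3% lower, and among the 79 genes at or over 1000 CPM they were 51.9% higher and 22.8% lower. Genes called lower had longer transcripts (a median of 1648 bases of exon) than genes called higher (1252 bases), beside 1318 bases over all genes tested. The X chromosome leaned downward: 10.7% of its 1894 tested genes were higher and 26.5% lower, with a median log2 fold change of -0.32, while each of the 5 autosomes had a median between 0.02 and 0.07.

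**Figure D1:**
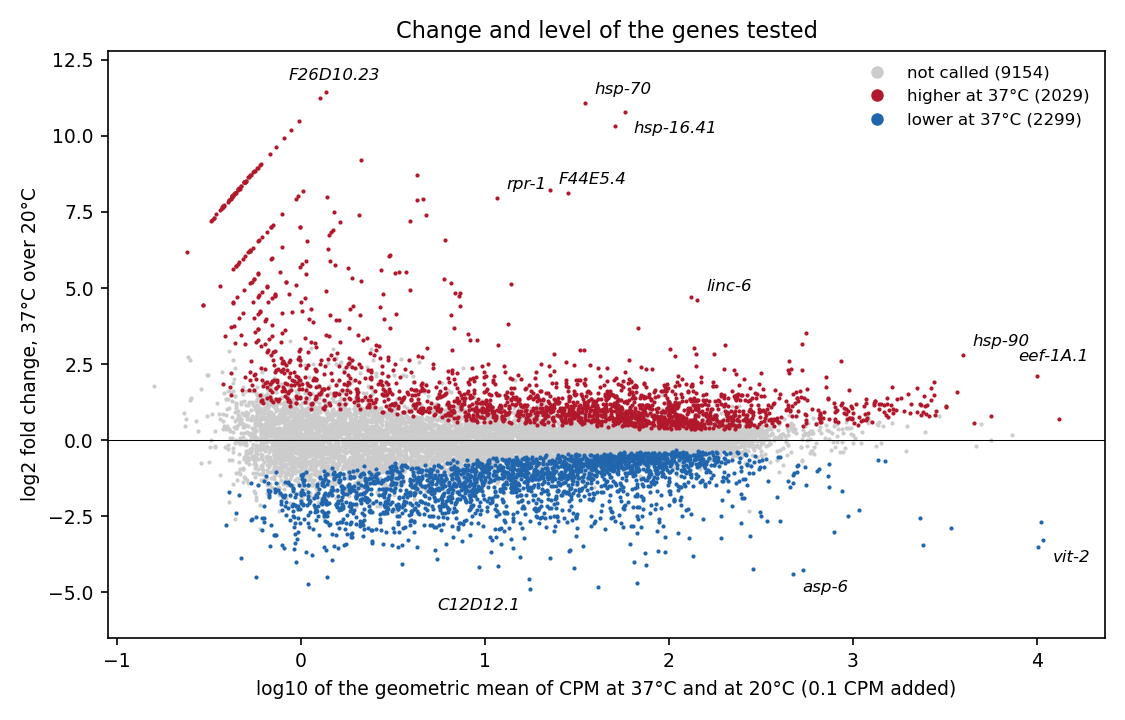
Log2 fold change (37°C over 20°C, y axis) of each of 13482 genes against log10 of the geometric mean of its CPM at 37°C and at 20°C (x axis, 0.1 CPM added). Red points are the 2029 genes called higher at 37°C, blue points the 2299 called lower and grey points the rest. hsp-70 and hsp-16.41 reach the top at middle levels, eef-1A.1 and hsp-90 rise at high levels, and vit-2 and asp-6 fall at high levels; lines of red points at the upper left are genes with 0 or few counts at 20°C.

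Classical heat shock genes were among the largest rises. hsp-70, an inducible cytosolic HSP70 on chromosome I (9320325–9322534, minus strand, WBcel235), had 1699.8, 2065, 1285 and 1091 CPM in 37°C replicates 1 to 4, against 0.406, 0.485 and 1.204 CPM in 20°C replicates 2 to 4, a log2 fold change of 11.08 ± 0.48 (adjusted p = 8.71e-06). hsp-16.41, a small heat shock protein, had 2606, 2865, 2030.2 and 1839 CPM at 37°C, against 1.42, 1.11 and 1.40 CPM at 20°C (10.79 ± 0.31, adjusted p = 9.68e-07). Its neighbour hsp-16.2 had 1934, 2077, 1612 and 1443 CPM at 37°C, against 1.29, 0.832 and 1.94 CPM at 20°C (10.34 ± 0.36, adjusted p = 2.36e-06). In each of these genes every heated library was far above every control library, and the shallow 37°C replicate 1 lay within the range of the deeper 37°C libraries. Per kilobase of exon, hsp-16.41 ranked 37th of the genes tested at 37°C and 10460th at 20°C, hsp-16.2 ranked 45th and 10256th, and hsp-70 ranked 201st and 12906th.

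Chaperones that every cell already holds rose by less in fold. hsp-90, the cytosolic HSP90, had 10938, 11026, 10986 and 8689.8 CPM at 37°C, against 1840.4, 1526 and 1127 CPM at 20°C (log2 2.80 ± 0.22, adjusted p = 0.000114). hsp-1, the constitutive HSP70, had 5797, 5923, 4108 and 3362 CPM at 37°C, against 1925, 1453 and 985.6 CPM at 20°C (1.72 ± 0.29, adjusted p = 0.00297). hsp-110, the HSP110 exchange factor, had 1156, 1227, 853.7 and 730 CPM at 37°C, against 248.2, 183.8 and 162.9 CPM at 20°C (2.32 ± 0.25, adjusted p = 0.000382). None of these groups overlapped. Of 14 genes for HSP90 and its co-chaperones 5 rose and none fell: beside hsp-90 these were the BAG-domain gene unc-23 (2.64 ± 0.24), sti-1, which links HSP70 to HSP90 (1.51 ± 0.27), the immunophilin fkb-6 (1.49 ± 0.24) and ahsa-1, which speeds the ATPase of HSP90 (1.22 ± 0.15).

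**Figure D2:**
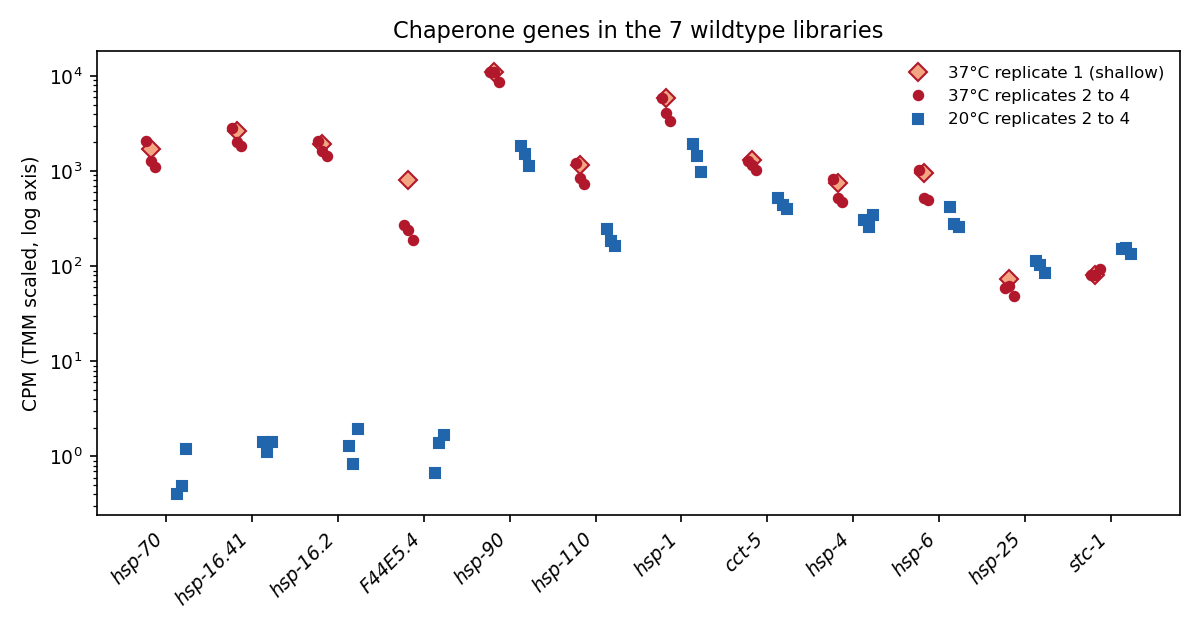
CPM (log axis) of 12 chaperone genes in each wildtype library. Diamonds are the shallow 37°C replicate 1, red circles 37°C replicates 2 to 4 and blue squares 20°C replicates 2 to 4. The first 4 genes lie at about 1 CPM at 20°C and above 100 CPM at 37°C, hsp-90 to hsp-6 are higher at 37°C from a high 20°C level, and hsp-25 and stc-1 are lower at 37°C; the diamond of F44E5.4 lies apart from the circles.

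Within the chaperone families the response divided by member. Of 16 small heat shock protein genes tested of 17 matched, 8 rose and 1 fell, with a median log2 fold change of 0.99 beside 0.01 over all genes tested. Without 20°C replicate 2, 3 or 4 the number that rose was 5, 4 or 5. Outside the hsp-16 genes the changes were modest. sip-1, expressed in the germline and embryos, had 1001, 1172, 544.9 and 687 CPM at 37°C, against 516.1, 288.4 and 155.3 CPM at 20°C (1.41 ± 0.41, adjusted p = 0.0295), but was not called without 37°C replicate 1 (1.34) or 2 (1.22) or without 20°C replicate 3 (1.34) or 4 (1.11). hsp-25, a small heat shock protein of muscle, fell to 73.6, 59.1, 62.5 and 49.1 CPM at 37°C, against 113.3, 102.8 and 85.42 CPM at 20°C (-0.72 ± 0.17, adjusted p = 0.0127). Of 12 HSP70 and HSP110 genes 7 rose and 2 fell, with a median of 1.15. The 2 that fell were stc-1 (-0.82 ± 0.12) and T14G8.3 (-1.26 ± 0.19), an HSP110-type gene, each separate between the groups. All 8 CCT subunit genes lay above 0 and 7 were called (median 1.08), with cct-5 at 1295, 1287, 1147 and 1022 CPM at 37°C, against 522, 445 and 399 CPM at 20°C (1.38 ± 0.16, adjusted p = 0.000584). The CCT calls rested on the number of libraries: 4 genes were called without 37°C replicate 1 or 2, and 3 without 20°C replicate 3 or 4.

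J-domain genes moved both ways, 7 up and 8 down of 29 (median -0.10), counts that were 4 and 4 without 37°C replicate 1 or 20°C replicate 3, and 3 and 4 without 37°C replicate 2. dnj-13 and dnj-19, cytosolic partners of HSP70, each rose by 1.03, while dnj-20 (-1.87 ± 0.17) and dnj-7 (-1.79 ± 0.24), partners in the endoplasmic reticulum (ER), fell. The ER list as a whole held 3 higher and 9 lower genes of 22 (median -0.40), or 5 and 6 without 20°C replicate 4: the disulfide isomerase pdi-1 (1.67 ± 0.18) and hsp-4, the inducible BiP (1.07 ± 0.23), rose, whereas hsp-3, the other BiP, was at 429.2, 464.1, 341.3 and 361.7 CPM at 37°C, against 394.3, 427.8 and 753.7 CPM at 20°C, and overlapped between the groups. Of 13 genes of the mitochondrial unfolded protein response 2 rose and 5 fell (median -0.35), and 0 to 3 rose and 2 to 4 fell when any 1 library was left out. The mitochondrial HSP70 hsp-6 had 953, 1017, 519 and 490.5 CPM at 37°C, against 418, 278 and 258 CPM at 20°C (1.23 ± 0.31, adjusted p = 0.018) and was not called without 20°C replicate 3 (1.14) or 4 (1.13), while its J-domain partner dnj-10 fell by 1.30 on the log2 scale (SE 0.15).

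Of 33 proteasome subunit genes 14 rose and none fell, with a median of 0.45. rpn-2, a subunit of the regulatory particle, had 464, 476, 325 and 271 CPM at 37°C, against 170.1, 125.7 and 119.8 CPM at 20°C (1.47 ± 0.24, adjusted p = 0.00249). Of the 6 tested genes of the 9 listed for the CUL-6 ubiquitin ligase, known for thermotolerance in the intracellular pathogen response, none rose and 2 fell, among them skr-4 (-1.34 ± 0.24). In the pals family of that response 4 of 17 tested genes rose, pals-26 the most (3.21 ± 0.44), with under 1 CPM in every 20°C library, and 1 fell.

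Genes for stress regulators mostly held or fell. Of 31 such genes 1 rose and 11 fell (median -0.26). hsf-1 itself had 49.2, 50.9, 29.3 and 43.4 CPM at 37°C, against 43.9, 31.1 and 37.3 CPM at 20°C (0.21 ± 0.22, adjusted p = 0.509), so its own transcript overlapped between the groups. The riser was ddl-2, for a partner in an inhibitory complex with HSF-1, at 14.09 to 42.04 CPM at 37°C, against 5.28 to 6.62 CPM at 20°C (2.25 ± 0.43, adjusted p = 0.00496). hlh-30, the worm TFEB and the gene the series was built around, fell to 16.51, 19.88, 14.43 and 15.84 CPM at 37°C, against 38.4, 41.5 and 69.2 CPM at 20°C (-1.58 ± 0.23, adjusted p = 0.00167). The FOXO factor daf-16 (-1.46 ± 0.19), the hypoxia factor hif-1 (-2.12 ± 0.16) and the bZIP genes zip-3 (-2.51 ± 0.26) and zip-2 (-1.66 ± 0.15) fell as well, with all 37°C values under all 20°C values. pha-4, the FOXA factor of the foregut, was called lower (-2.71 ± 0.64), but its 20°C values spread widely, with 2.23, 3.38, 2.85 and 2.52 CPM at 37°C, against 5.21, 7.90 and 41.5 CPM at 20°C. W06A11.1, a gene uncharacterized before the study, was at 0.777, 0.864, 1.199 and 0.556 CPM at 37°C, against 0.271, 0.485 and 0.268 CPM at 20°C, and was not called (1.31 ± 0.45, adjusted p = 0.0537). Of the alternatives, W06A11.1 was called only with TMM factors from nuclear protein-coding genes and with thinned libraries, and not by DESeq2. The edgeR test of wildtype against mutant responses, given below, called no gene. The study, which used DESeq2, reported that heat raised W06A11.1 in an hlh-30-dependent way. It also saw a tagged W06A11.1 protein rise with heat and found that loss of the gene lowered heat resistance.

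Nuclear hormone receptors, a large family of transcription factors in worms, had 10 higher and 43 lower genes of 174 tested (269 matched), a median of -0.42. The steepest fall among those with a mean of at least 50 counts was nhr-14, an iron-linked receptor of the intestine, at 0.777, 0.902, 1.49 and 1.63 CPM at 37°C, against 11.9, 15.7 and 14.3 CPM at 20°C (-3.50 ± 0.31, adjusted p = 0.000179). F-box genes, substrate adaptors of ubiquitin ligases, had 24 higher and 45 lower of 215 tested (322 matched), and this balance hung on 20°C replicate 4: without it 26 were higher and 14 lower, and the median was 0.03 in place of -0.42. fbxc-29 and fbxb-22, both called lower, stood at 15.45 and 14.05 CPM in that library and at no more than 4.09 CPM in the other control libraries, and fbxb-22 was not called without it (-1.75). For the nuclear hormone receptors the count without 20°C replicate 4 was 17 higher and 29 lower, without 37°C replicate 4 it was 9 and 25, without 37°C replicate 2 it was 5 and 27 and without 20°C replicate 3 it was 4 and 32.

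**Figure D3:**
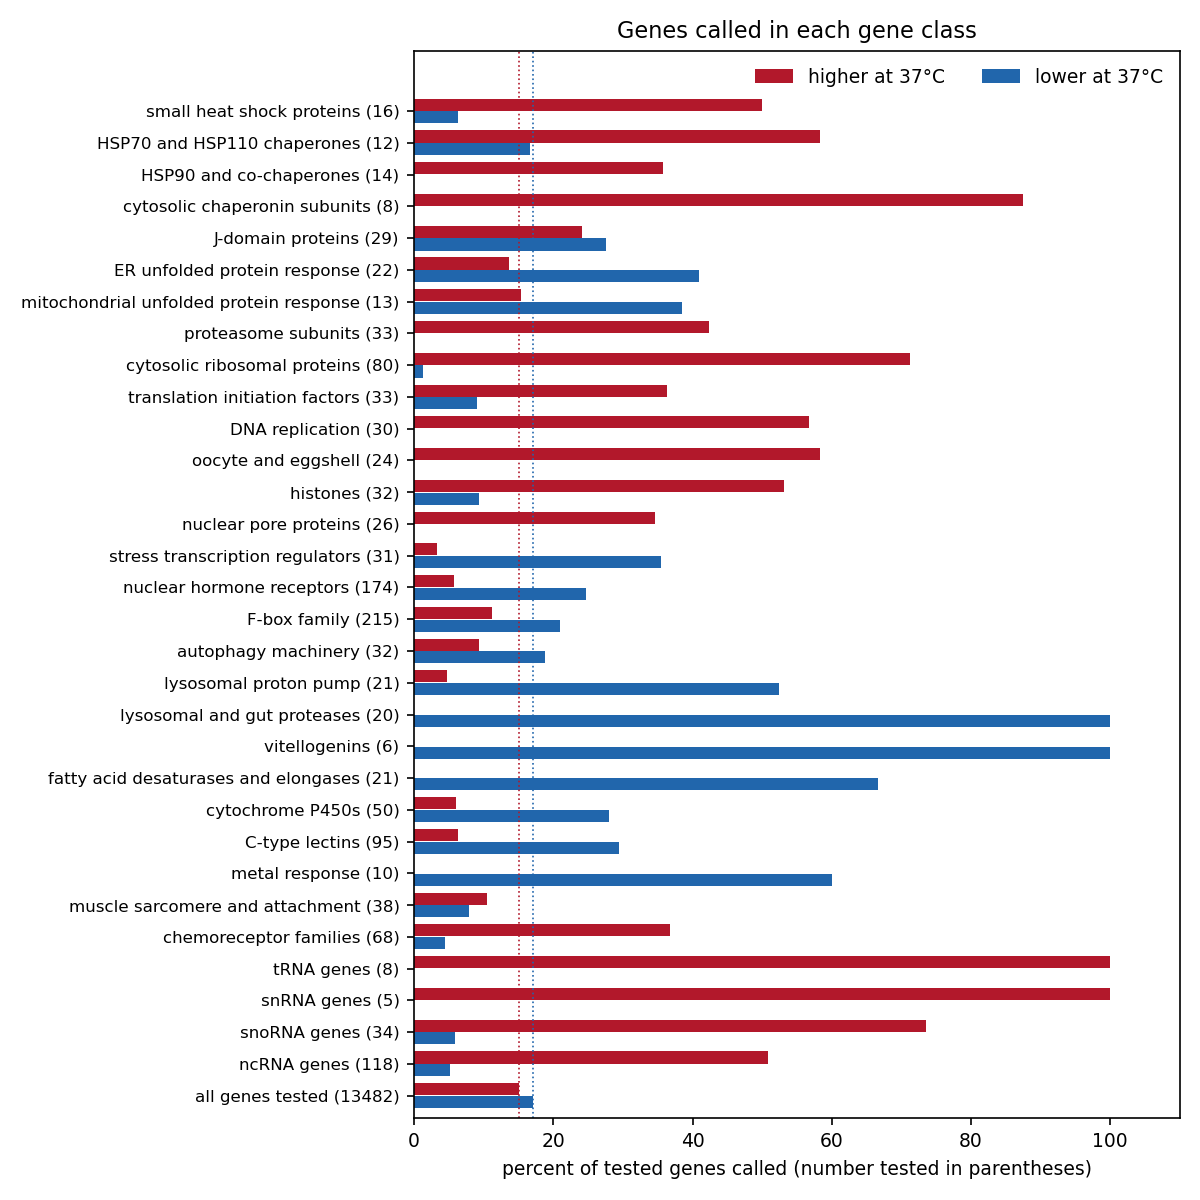
Percent of the tested genes of each class called higher (red) and lower (blue) at 37°C, with the number tested in parentheses. Dotted lines mark the shares over all 13482 genes, 15% higher and 17.1% lower. CCT subunits, ribosomal proteins, tRNA, snRNA and snoRNA genes have long red bars, and the proteases, vitellogenins and fatty acid genes long blue bars.

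Within the translation machinery, transcripts of cytosolic ribosomal proteins rose as a class. Of 80 genes for cytosolic ribosomal proteins tested 57 rose and 1 fell (71.2% higher beside 15% of all genes), and their median log2 fold change was 0.85. Their summed level was 156424, 140797, 176094 and 135051 CPM at 37°C, against 87967, 84024 and 62025 CPM at 20°C, with no overlap. The acidic stalk protein gene rla-0 led at 1.91 ± 0.19. rpl-25.1 was the 1 that fell, to 96.2, 82.5, 88.4 and 64.2 CPM at 37°C, against 154, 164 and 174 CPM at 20°C (-0.99 ± 0.16, adjusted p = 0.00214). eef-1A.1, the elongation factor that brings aminoacyl-tRNA to the ribosome, had 23481, 22849, 18453 and 17566 CPM at 37°C, against 5612, 4539 and 4298 CPM at 20°C (4.27-fold higher, SE 0.20 on the log2 scale, adjusted p = 0.000225), and went to the 3rd rank per kilobase of exon at 37°C, against the 24th at 20°C. Initiation factor genes had 12 higher and 3 lower of 33. eif-4A3, the RNA helicase of the exon junction complex, rose most (4.01-fold, SE 0.32 on the log2 scale), and ifg-1, the eIF4G scaffold, fell (-1.06 ± 0.17), with 122.8, 136.2, 90.64 and 115 CPM at 37°C, against 252, 207 and 267 CPM at 20°C. Mitochondrial ribosomal proteins had 16 higher and 3 lower of 65 (median 0.27), and aminoacyl-tRNA synthetases 6 higher and 5 lower of 31 (median 0.32; 10 and 5 without 37°C replicate 4).

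Genes of DNA replication and of oocytes rose in many members and fell in none. Of 30 replication genes 17 rose and none fell (median 0.59), and mcm-2, a subunit of the replicative helicase, had 550.1, 587, 317 and 331 CPM at 37°C, against 102.2, 72.79 and 91.37 CPM at 20°C (2.33 ± 0.27, adjusted p = 0.00058). Of 24 oocyte and eggshell genes 14 rose and none fell (median 0.98). The eggshell genes cbd-1 and cpg-1 both stood at 2.61 on the log2 scale: cbd-1 had 2756, 2767, 1634 and 1397 CPM at 37°C, against 561, 311 and 176 CPM at 20°C (SE 0.43, adjusted p = 0.0026). As in the summed oocyte level given above, 37°C replicates 1 and 2 lay above replicates 3 and 4 and 20°C replicate 4 was lowest, but every heated library was above every control. The number of oocyte genes that rose was 19 without 20°C replicate 2, and 7 without 37°C replicate 1 or 2 or without 20°C replicate 3 or 4. Germ granule and meiosis genes had 6 higher and none lower of 22 (median 0.21), led by pgl-3 (1.91 ± 0.39), while none of the 4 germline markers was called (-0.28 to 0.73), and nuclear pore genes 9 higher and none lower of 26, led by npp-9 (1.54 ± 0.32). Without 20°C replicate 3 or 4 the germ granule count was 3, and the nuclear pore count was 2 without 20°C replicate 3, 4 without 20°C replicate 4 or 37°C replicate 1, and 5 without 37°C replicate 2. The lean of these classes moved with the oocyte level of the libraries, whose part in it was not tested. The 36 tested major sperm protein genes had none called in either direction, with a median of 0.46 that lay below 0 (-0.19) without 37°C replicate 3.

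Histone genes had 17 higher and 3 lower of 32 tested among 72 matched (median 1.15). Reads of the near-identical replication-dependent copies may have been divided between loci, so that single values are uncertain. his-64, a core histone gene, had 14.4, 13.6, 17.8 and 21.3 CPM at 37°C, against 4.87, 4.58 and 3.75 CPM at 20°C (1.93 ± 0.24, adjusted p = 0.000751). his-24, the major linker histone H1, went the other way with 11.8, 18.9, 16.7 and 16.7 CPM at 37°C, against 87.1, 114 and 579 CPM at 20°C (-4.01 ± 0.62, adjusted p = 0.00198). The heated libraries agreed closely for his-24, while 20°C replicate 4 was over 5 times the other controls.

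Yolk genes fell together. All 6 vitellogenin genes, which code for the yolk proteins made in the intestine, fell (median -3.09). vit-2 had 4219, 4064, 3421 and 2074 CPM at 37°C, against 23313, 31245 and 47023 CPM at 20°C (-3.30 ± 0.32, adjusted p = 0.000241), and vit-6 had 3412, 3253, 3304 and 2053 CPM at 37°C, against 22139, 32021 and 47928 CPM at 20°C (-3.50 ± 0.30, adjusted p = 0.000156). As a family they summed to 8726–15314 CPM at 37°C and 81381–159552 CPM at 20°C. Every control library was at least 5 times every heated one in that sum.

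Digestive and lysosomal proteases fell without exception among those tested, 20 of 20 (28 matched), with a median of -2.48. asp-6, an aspartyl protease of the cathepsin D type, had 100.3, 98.55, 126.4 and 86.2 CPM at 37°C, against 1560.3, 1815 and 3127 CPM at 20°C (-4.40 ± 0.27, adjusted p = 4.95e-05). asp-1 (-4.27 ± 0.31), asp-13 (17.1-fold lower, SE 0.24 on the log2 scale) and the cathepsin B-like cpr-1 (-4.24 ± 0.29) were close behind, and the cathepsin L gene cpl-1 fell by 2.29 on the log2 scale (SE 0.20). The smallest change in the list was -0.69. Falls of this size were also seen in genes of other roles: C12D12.1 had the most negative change of all 13482 genes, -4.88 ± 0.23, with 3.50, 3.12, 3.27 and 2.86 CPM at 37°C, against 77.42, 77.57 and 125.7 CPM at 20°C. ctsa-2 (-4.84 ± 0.35), a cathepsin A-type carboxypeptidase, dsc-4 (-4.21 ± 0.25), the large subunit of the microsomal triglyceride transfer protein that loads lipid on yolk particles, and scav-4 (-4.08 ± 0.34), a CD36-type scavenger receptor, followed. act-5, the actin of intestinal microvilli, had 40.88, 25.32, 49.31 and 29.38 CPM at 37°C, against 437.5, 558.2 and 529.6 CPM at 20°C (-3.81 ± 0.25, adjusted p = 5.94e-05). These losses moved with the fall of the intestinal markers ges-1 (-2.87 ± 0.23), a gut esterase, and elt-2 (-2.26 ± 0.25), the GATA factor of the intestine, and the part of a general intestinal loss in them was not tested.

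Lipid genes fell in most members. Of 21 tested genes for fatty acid desaturation, elongation and their control none rose and 14 fell (median -0.69). elo-2, an elongase of palmitic acid, had 35.1, 26.5, 59.2 and 47.6 CPM at 37°C, against 337, 400.0 and 431 CPM at 20°C (-3.21 ± 0.27, adjusted p = 0.000144). fat-5, a palmitoyl-CoA desaturase, fell by 2.25 on the log2 scale (SE 0.20), sbp-1, the SREBP factor, by 1.85 (SE 0.24), and fat-7, a stearoyl-CoA desaturase, by 1.35 (SE 0.19). Its near copy fat-6 had 1091, 1305, 1066 and 992.7 CPM at 37°C, against 639.8, 876.1 and 1041 CPM at 20°C, and was not called (0.39 ± 0.19, adjusted p = 0.158). fat-6 and fat-7 are nearly identical, and how reads that fit both were counted was not given, so their single values are uncertain. Whether reads were divided between them was not tested.

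In the lysosome, 11 of 21 proton pump genes fell and 1 rose. vha-6, the pump subunit of the intestinal lumen, fell by 2.31 on the log2 scale (SE 0.36), and vha-5, of the excretory canal and epidermis, was the 1 that rose, to 141, 125, 247 and 194 CPM at 37°C, against 59.2, 74.7 and 69.8 CPM at 20°C (1.38 ± 0.24, adjusted p = 0.0036). Autophagy genes had 3 higher and 6 lower of 32 and a median of -0.06, shares not far from those over all genes. atg-9, the membrane scramblase of early autophagosomes, had 105, 115, 57.9 and 55.6 CPM at 37°C, against 25.4, 21.8 and 41.7 CPM at 20°C (1.49 ± 0.34, adjusted p = 0.011), with 37°C replicates 1 and 2 above replicates 3 and 4 as in the oocyte genes. atg-18 (-1.06 ± 0.20) and epg-9 (-1.15 ± 0.29) fell.

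Most defence and detoxification classes had more lower than higher genes. Cytochrome P450 genes had 3 higher and 14 lower of 50 (median -0.49; 8 lower without 37°C replicate 1 or 2 or 20°C replicate 4, and 9 without 37°C replicate 4), C-type lectins 6 and 28 of 95 (240 matched), lysozyme, saposin and antimicrobial peptide genes 3 and 13 of 47, UDP-glucuronosyltransferases 5 and 11 of 57, and glutathione transferases 3 and 6 of 34 (6 and 6 by DESeq2). The lower shares of the last 2 classes, 19.3% and 17.6%, were close to the 17.1% over all genes. The median difference of C-type lectins from 20°C was -1.23 in 37°C replicate 1 and -0.14 in the deeper 37°C libraries. With no filter on low counts the lectin median was 0.44 (21 higher and 32 lower of 225). That of the lysozyme, saposin and antimicrobial peptide genes was then 0.40 (6 and 15 of 86). Superoxide dismutases, catalases and peroxiredoxins had 3 higher and 2 lower of 13 (median 0.39). clec-265 had 5.34, 4.25, 8.10 and 5.56 CPM at 37°C, against 76.7, 81.7 and 98.8 CPM at 20°C (-3.88 ± 0.24, adjusted p = 4.95e-05). The peroxisomal catalase ctl-2 fell by 2.45 on the log2 scale (SE 0.17), while the mitochondrial superoxide dismutase sod-2 (0.62 ± 0.13) and gst-1 (1.13 ± 0.14) rose. Of 10 genes of the metal response none rose and 6 fell (3 without 37°C replicate 1 or 20°C replicate 3), among them cdr-2, of the cadmium-responsive family (-1.92 ± 0.19), and the ferritin ftn-2 (-1.36 ± 0.21). Among 11 genes of the hypoxia response 5 fell, rhy-1 (-2.26 ± 0.23) the most among those with a mean of at least 50 counts.

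Muscle and nerve genes were called in both directions, in most classes at shares below those over all genes tested. Of 38 sarcomere and attachment genes 4 rose and 3 fell, or 2 and 2 without 37°C replicate 1 or 2 or 20°C replicate 3 or 4, the giant kinase gene unc-22 (1.06 ± 0.24) and the troponin T gene tnt-3 (-1.09 ± 0.19) with the largest changes each way, and the myosin unc-54 overlapped between the groups (0.13 ± 0.29). The median of the class was 0.12, and it was -0.09 without 37°C replicate 1, the library that stood higher (0.55 above 20°C, against -0.12 in the deeper 37°C libraries). Of 25 presynaptic genes 2 rose and 6 fell: egl-21, a carboxypeptidase that trims neuropeptides, had 6.60, 8.79, 8.56 and 6.53 CPM at 37°C, against 23.3, 26.4 and 24.9 CPM at 20°C (-1.70 ± 0.19, adjusted p = 0.000463). The vesicle protein gene snb-1 was at 126.2, 123.2, 116.7 and 117.9 CPM at 37°C, against 123.3, 122.3 and 133.5 CPM at 20°C (-0.06 ± 0.11, adjusted p = 0.702). Neuropeptide genes split evenly, 8 up and 9 down of 72, with flp-1 (3.35 ± 0.76) and nlp-47 (-2.89 ± 0.51) at the ends among those with a mean of at least 50 counts, and 84 tested cuticle collagens had 10 each way. The neuropeptide balance turned with the libraries, to 6 higher and 3 lower without 20°C replicate 2 and 5 higher and 13 lower without 20°C replicate 4. Without 37°C replicate 1 it was 11 higher and 5 lower. col-88 and col-97, both under 1 CPM at 20°C, rose (6.27 ± 0.84 and 5.50 ± 0.64), and col-166 fell to 2.33, 3.19, 5.54 and 5.27 CPM at 37°C, against 48.4, 55.4 and 42.2 CPM at 20°C (-3.55 ± 0.30, adjusted p = 0.000147).

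Energy genes gave mixed counts. Of 40 nuclear genes of oxidative phosphorylation 12 rose and 4 fell (median 0.16; 7 rose without 37°C replicate 1 or 2, and 6 without 20°C replicate 3; none fell without 20°C replicate 3, and 1 without any other single library but 37°C replicate 1), and of 12 protein genes of the mitochondrial genome 3 rose and 1 fell. Genes of trehalose and glycerol metabolism, whose products protect proteins, had 1 higher and 6 lower of 10: the trehalases tre-4 (-2.69 ± 0.35) and tre-2 (-1.43 ± 0.15) fell and tre-5 rose (1.83 ± 0.43). Glycolysis had 3 higher and none lower of 18, but 1 or none higher without 37°C replicate 1 or 2 or 20°C replicate 3 or 4, with gpd-4, a glyceraldehyde 3-phosphate dehydrogenase, at 211, 224, 121 and 118 CPM at 37°C, against 86.8, 52.8 and 26.8 CPM at 20°C (1.60 ± 0.40, adjusted p = 0.0169; 1.57 and not called without 20°C replicate 3). Of 8 tested genes for mitochondrial fission and fusion 1 was called, eat-3, the inner membrane fusion gene, which fell to 58.66, 60.98, 53.98 and 70.66 CPM at 37°C, against 157.8, 130.5 and 126.7 CPM at 20°C (-1.18 ± 0.14, adjusted p = 0.000706).

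Many of the largest rises were not chaperones but loci with next to no reads at 20°C. Of the 100 largest rises, among called genes with a mean of at least 50 counts and no overlap between the groups, 62 were protein-coding and 28 had at most 3 counts in every 20°C library, while all of the 100 largest falls chosen in the same way were protein-coding. F26D10.23, a noncoding RNA gene on chromosome IV (17278413–17278502, plus strand), had the largest fitted change of all, with 19.3, 26.7, 14.4 and 13.5 CPM at 37°C, against 0 in each 20°C library, at least 90.6-fold higher if 3 counts per library are taken as the floor. It lies just before the start of hsp-1 on the same chromosome and strand (17278959–17281330). gcy-17, a receptor guanylate cyclase, had 7.089, 13, 5.456 and 5.527 CPM at 37°C, against 0 in each 20°C library (at least 38.1-fold higher), and srx-102, of a chemoreceptor family, had 6.31, 10.3, 5.29 and 3.82 CPM, against 0 in each (at least 31.5-fold higher). The shallow replicate 1 had such reads in all 3 genes, so they were not limited to the deeper libraries. Of 68 tested chemoreceptor genes, a small part of the 1316 matched, 25 rose and 3 fell, with 18 at the floor at 20°C. The filter kept genes with a mean count of 10 or more across the series, which a chemoreceptor silent at 20°C passed only through heated libraries, so this count describes the genes that passed and not the family.

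Genes that rose most had raised neighbours. Of the 30 largest rises 26 (86.7%) had another gene called higher within 5 kb, as did 71 of the 100 largest (71.0%), beside 4335 of all 13482 genes (32.2%). Where the next tested gene downstream on the same strand lay within that window, it was called higher for 15 of 19 (78.9%) of the 30 largest rises and for 14.9% over all genes tested, and upstream for 12 of 16 (75%), beside 15.9% over all genes. Raised neighbours of each other count on both sides here. Only tested genes counted as neighbours, and a locus silent at 20°C passed the count filter only through heated libraries. The shares therefore describe genes that passed and not all loci near the largest rises. hsp-16.2 and hsp-16.41 are divergent genes 207 bases apart on chromosome V, and F44E5.4 and F44E5.5 are divergent genes 317 bases apart on chromosome II. hsp-70 lies inside uggt-2, a glucosyltransferase gene on the other strand, which had 11.75, 15.82, 7.068 and 6.454 CPM at 37°C, against 0.812, 0.4159 and 1.137 CPM at 20°C (3.69 ± 0.48, adjusted p = 0.000902). The strand setting of the counting was not given, and without it reads of overlapping or adjoining transcripts cannot be assigned with certainty. srx-102 lies 1513 bases from the pseudogene WBGene00023283 (14.7, 24.4, 11.7 and 13.6 CPM at 37°C, against 0 in each 20°C library), and ZK1240.1 lies 302 bases from ZK1240.8, each raised (7.94 ± 0.78 and 6.84 ± 0.69).

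Noncoding RNA loci took a larger share of reads after heat in most classes. tRNA genes had 49.97, 54.32, 106.0 and 83.64 in counts-per-million of all counts at 37°C, against 3.72, 4.55 and 4.65 at 20°C, 17.06 times in the mean. Spliceosomal and other snRNA genes had 22.31, 26.56, 31.99 and 28.72 at 37°C, against 1.29, 1.08 and 2.78 at 20°C (15.96 times). snoRNA genes, which guide the modification of ribosomal RNA, had 198, 217, 349 and 293 at 37°C, against 65.5, 54.5 and 65.9 at 20°C (4.27 times). All heated libraries lay above all control libraries in these classes. The 15363 piRNA loci, 21 base germline RNAs, went the same way with 113.0, 127.1, 158.2 and 148.1 at 37°C, against 21.04, 23.26 and 41.26 at 20°C (4.79 times). With 4 against 3 libraries an exact permutation test cannot go below p = 0.0571, which these classes, lincRNA, miRNA, ncRNA and pseudogene loci, and protein-coding loci with a lower share, reached (two-sided, adjusted p = 0.0635 over 10 classes). Antisense RNA did not reach it (1.22 times, exact p = 0.171). In 37°C replicate 1 alone the ratios to the 20°C mean were 11.6 for tRNA, 12.99 for snRNA and 3.20 for snoRNA. In 37°C replicate 1 the antisense ratio was 0.953. These loci are short or often lie in or beside other genes, and the libraries were not made for small RNA, so the counts are reads on the loci and not measures of mature tRNA or piRNA.

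**Figure D4:**
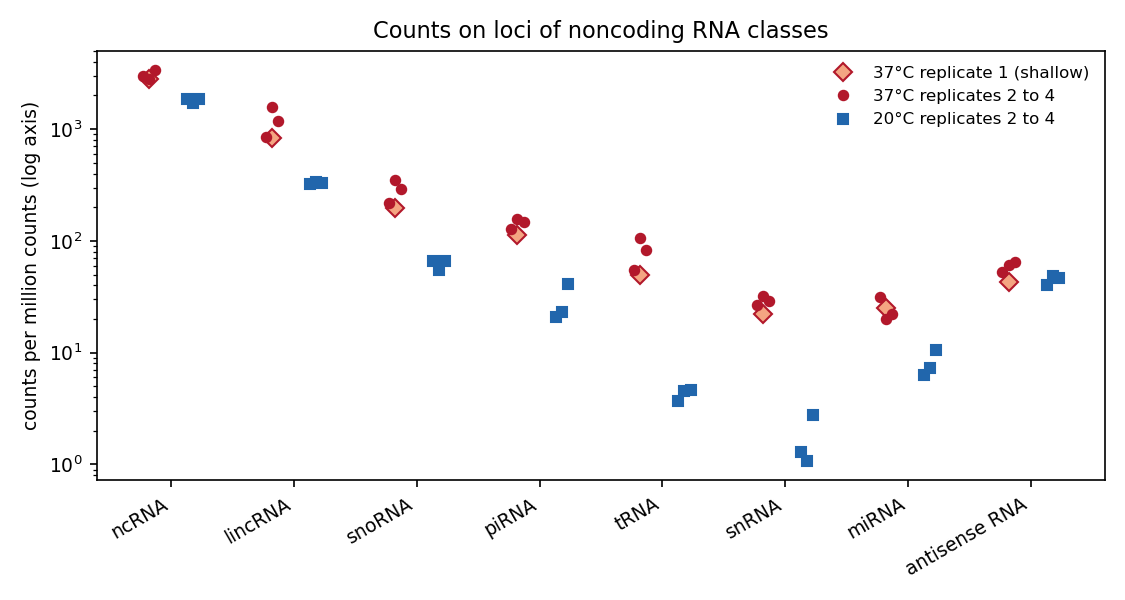
Summed counts on all loci of each RNA class, in counts-per-million of the library (log axis). Diamonds are the shallow 37°C replicate 1, red circles 37°C replicates 2 to 4 and blue squares 20°C replicates 2 to 4. In each class but antisense RNA all 37°C points are above all 20°C points, most for tRNA and snRNA, where the means differ 17.06 and 15.96 times.

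Among single noncoding genes that rose, linc-6, on X, made up 52.7% of lincRNA counts and had 502, 472, 1043 and 668 CPM at 37°C, against 21.4, 30.3 and 26.5 CPM at 20°C (4.69 ± 0.34, adjusted p = 8.37e-05). rpr-1, the RNA of ribonuclease P, which cuts the 5′ end of tRNA precursors, had 136.4, 216.1, 159.6 and 178 CPM at 37°C, against 0.7444, 0.8318 and 0.4682 CPM at 20°C (7.97 ± 0.29, adjusted p = 2.41e-06), and mrpr-1, the RNA of ribonuclease MRP, had 18.35, 17.09, 29.18 and 21.88 CPM at 37°C, against 0.2707, 0.2773 and 0.4013 CPM at 20°C (6.06 ± 0.34, adjusted p = 4.92e-05). rpr-1 lies within the protein-coding gene ints-8. The locus of cel-mir-239b on X had 13.1, 18.2, 4.67 and 6.08 CPM at 37°C, with at most 3 counts in each 20°C library (at least 51.6-fold higher). Of the genes of these classes that passed the filter, all 8 tRNA, all 5 snRNA, 25 of 34 snoRNA, 60 of 118 ncRNA and 14 of 51 lincRNA genes were called higher. At most 3 counts in every 20°C library were found for 7 tRNA, 4 snRNA, 15 snoRNA and 30 ncRNA genes among those tested, whose wildtype counts thus came nearly all from heated libraries, so the counts describe the genes that passed and not the classes. Called lower were 6 ncRNA genes (down to -3.37), 2 snoRNA genes (to -2.92), 2 lincRNA genes (to -1.45) and 1 piRNA gene (-1.23). With libraries thinned to the total of 37°C replicate 1, tRNA loci with any count numbered 69 to 113 at 37°C, against 15 to 20 at 20°C, and piRNA loci 774 to 1115 at 37°C, against 130 to 247 at 20°C (unthinned counts of all genes with reads were 18914, 22901, 23198 and 23117 at 37°C, against 17645, 17770 and 17945 at 20°C).

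The shallow 37°C library lay on the called side for most genes called without it. Of 1494 genes called higher in a fit without 37°C replicate 1, that library lay above the range of the 3 control libraries for 1458 (97.6%, beside 34.9% of all genes tested), and of 1659 called lower it lay below the range for 1639 (98.8%, beside 35.2%), with 2 on the other side. Among the calls to which it contributed, for 2021 of the 2029 genes called higher (99.6%) and 2287 of the 2299 called lower (99.5%), 37°C replicate 1 lay beyond the range of the 3 control libraries on the called side, and for the other 8 and 12 it lay inside that range. Those inside included nex-3, an annexin, with 62.2, 87.4, 221 and 176 CPM at 37°C, against 31.3, 66.7 and 56.4 CPM at 20°C (1.41 ± 0.45, adjusted p = 0.041), and nhr-8, with 13.1, 11.3, 7.27 and 6.71 CPM at 37°C, against 25.85, 12.34 and 28.23 CPM at 20°C (-1.21 ± 0.34). The call of nex-3 was lost without 37°C replicate 3 or 4 or any 20°C library (1.09 to 1.64), and that of nhr-8 without 37°C replicate 3 or 4 or 20°C replicate 2 or 4 (-0.98 to -1.09). With 37°C replicate 1 as the lone heated library, 1040 genes were called, 601 higher and 439 lower, in a fit that takes its spread from the 20°C libraries.

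In 10 genes at 3 duplicated loci the shallow and deep 37°C libraries disagreed by at least 1.5 on the log2 scale with replicate 1 higher; they were chosen after their values were seen. Another 12 called genes with a mean of at least 50 counts were lower in replicate 1 by as much, 11 of them called lower. The 4 copies of hsp-16.1 and hsp-16.48, an inverted repeat on chromosome V, summed to 882, 67.5, 39.4 and 32.5 CPM at 37°C, against 0.775, 0.728 and 1.498 CPM at 20°C. F44E5.4 and F44E5.5, near-identical inducible HSP70 genes, summed to 1896, 606, 565 and 460 CPM at 37°C, against 1.90, 3.86 and 3.35 CPM at 20°C. pud-1.1, pud-1.2 and the 2 copies of pud-2.2 summed to 30.2, 1.82, 5.10 and 3.35 CPM at 37°C, against 39.51, 86.97 and 62.34 CPM at 20°C. The heat shock copies were far above the controls in every heated library, so only the size of the rise differed with the library, while the fall of the pud genes was -0.70 to -1.45 on the log2 scale in replicate 1 and -3.43 to -4.97 in the deeper libraries. Both hsp-16.1 copies, hsp-16.1 (WBGene00002015) and hsp-16.1 (WBGene00002017), lost their call without any 1 of the 20°C libraries (7.06 to 8.29), and the pud genes lost theirs without most single libraries (-1.95 to -3.46). The same 10 genes, and no others with a mean of at least 50 counts, were also at least 2-fold lower in the deep than in the shallow 37°C libraries of all 3 genotypes (5 deep and 7 shallow libraries). Another 7 genes were at least 2-fold higher in the deep libraries of all 3 genotypes, of which only F31C3.13 was called (higher). For the 10 genes the wildtype part repeats their choice, since replicate 1 is the only shallow wildtype 37°C library. In hlh-30(tm1978) mutants at 37°C, for example, the hsp-16.1 and hsp-16.48 copies summed to 53.2 CPM in the deep library and to 881, 816 and 993 CPM in the shallow ones. How reads that fit several copies were counted was not given, and fold changes of these 10 genes are uncertain in size. hsp-16.41, hsp-16.2 and hsp-70 had no such gap between replicate 1 and the deeper libraries.

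**Figure D5:**
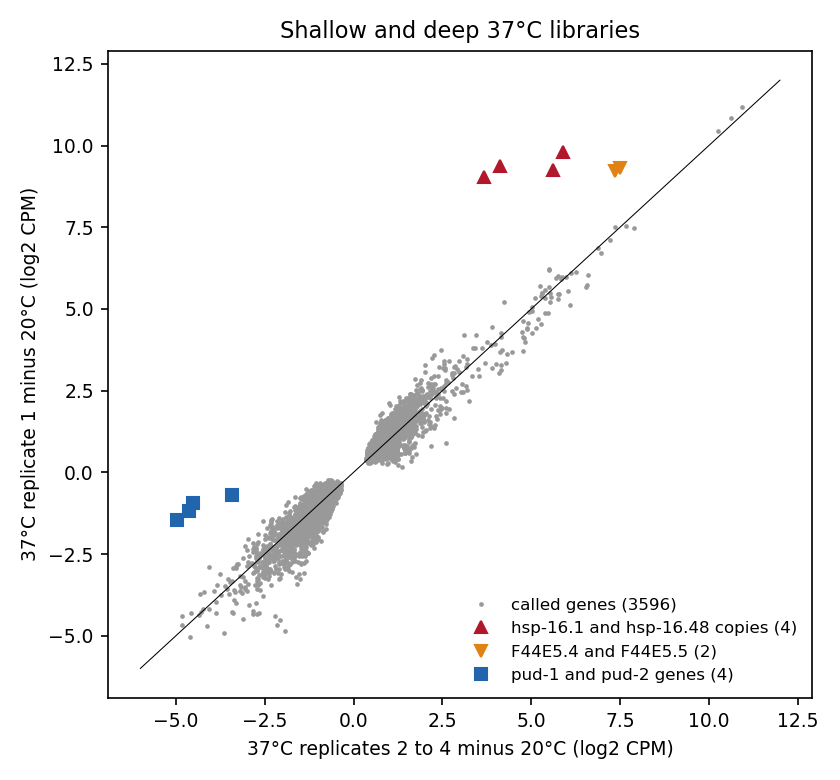
Difference from 20°C in log2 CPM of 37°C replicate 1 (y axis) against that of 37°C replicates 2 to 4 (x axis) for called genes with a mean of at least 50 counts; the line marks equal differences. Grey points (the other called genes) follow the line. The copies of hsp-16.1 and hsp-16.48 (red), F44E5.4 and F44E5.5 (orange) and the pud genes (blue), 10 genes in all, lie above it.

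Set beside the other genotypes over all 23 libraries, the wildtype response differed from that of rescued animals at 414 of 13482 genes (3.07%), 329 of them (2.44%) with the wildtype change below that of the rescued animals and 85 above. From the response of hlh-30(tm1978) mutants it differed at no gene by edgeR, with 585 genes at an unadjusted p under 0.05 and 2 genes called by DESeq2. Some of the deepest wildtype falls were among the differences from rescued animals and others, such as asp-6, asp-1 and asp-13, were not: the wildtype minus rescued value was -2.36 for cpr-1, -2.74 for both dsc-4 and ctsa-2, and -2.57 for C12D12.1. In the other direction, col-97 differed by 2.33. These values rest on the same wildtype libraries as the falls themselves. Without 20°C replicate 4 the count was 93 genes, without 37°C replicate 2 it was 215, without 37°C replicate 1 it was 241 and without 20°C replicate 2 it was 745.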

How the data were processed

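Raw counts of reads per gene were used as the authors deposited them, 1 library per file. Per the labels and the study's methods, reads were trimmed (Trimmomatic), aligned to WBcel235 (STAR) and counted per gene (featureCounts of Subread). The settings for strand and for reads with several matches were not given in the sources used here. Genes averaging at least 10 counts over 23 libraries were tested. Counts were scaled by TMM and fitted with edgeR 4.0.16 (glmQLFit, glmQLFTest, R 4.3.3), 4 libraries at 37°C against 3 at 20°C with no further term, and p-values were adjusted by Benjamini-Hochberg over all genes tested (threshold 0.05). The differences between genotypes came from 1 fit of all 23 libraries. CPM are TMM scaled, and the per-million shares of RNA classes are of total counts. Intervals cover the spread between these libraries. Alternatives included DESeq2 1.42.0, other scalings and filters, a replicate block, thinning, and single libraries left out, and the fits were tested on simulated data. Gene names, classes and coordinates came from the Ensembl annotation of the same build and the files' own columns.

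The genes described were the largest changes among called genes with a mean of at least 50 counts and no overlap between groups, up to 2 called genes in each direction for each list, 5 genes set by name (hlh-30, hsf-1, hsp-16.2, hsp-70 and W06A11.1) and genes at which 37°C replicate 1 lay inside the 20°C range. Others (such as act-5, rpr-1, the tissue markers and further list members) were chosen after their values were seen. The members and lists were chosen with earlier results of these data known.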

Additional observations from a re-analysis of the deposited data

Results flagged for a closer look

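In 37°C libraries, 1 value lay apart from the other 3 (gap over range above Dixon's critical value) for 16 of the 120 genes described. Chance alone gives such a gap in about 1 group in 20. The 10 genes of duplicated loci had been grouped by a gap of replicate 1, so their passing is no further evidence. The 16 therefore cannot be set against that rate. In the genes of duplicated loci the value apart was that of 37°C replicate 1: the gap was 0.987 and 0.991 for the hsp-16.1 copies WBGene00002015 and WBGene00002017, 0.937 and 0.906 for the hsp-16.48 copies WBGene00002019 and WBGene00002020, 0.872 for F44E5.4, 0.887 for F44E5.5, 0.862 for pud-1.1, 0.845 for pud-1.2, and 0.851 and 0.958 for the pud-2.2 copies WBGene00017490 and WBGene00017500. It was replicate 2 for col-88 (0.942), replicate 3 for vha-6 (0.889) and zip-2 (0.867), and replicate 4 for hsp-90 (0.962), stc-1 (0.92) and vit-6 (0.884).

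Between genotypes, the wildtype change under heat lay below that of rescued animals (edgeR's interaction test, adjusted p under 0.05) for 20 of the 120 genes described, beside 2.44% of all genes tested. Most of these genes were chosen for large wildtype changes, and the same wildtype libraries enter the test. The larger share among them is therefore no independent result. The wildtype minus rescued log2 difference was -2.07 for ges-1, -2.03 for elt-2, -1.51 for act-5, -2.36 for cpr-1, -2.74 for ctsa-2, -2.74 for dsc-4, -1.95 for scav-4 and -2.57 for C12D12.1. The intestinal genes asp-6, asp-1, asp-13, vit-2 and vit-6 were not called in that test (adjusted p = 0.0524, 0.12, 0.125, 0.0966 and 0.0867). Among metabolic and defence genes it was -1.58 for elo-2, -1.80 for fat-5, -1.06 for tre-2, -1.65 for tre-4, -1.28 for ctl-2 and -2.44 for clec-265. Among regulators and chaperones it was -0.97 for daf-16, -1.17 for zip-2, -1.81 for zip-3, -0.82 for dnj-20, -1.28 for dnj-7 and -1.04 for T14G8.3. For col-97 the wildtype rise was larger, by 2.33.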

How the results depend on the processing

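At an adjusted p under 0.01, 2021 genes were called (917 higher, 1104 lower), and with 37°C replicate 1 as the lone heated library 1040 (601 higher, 439 lower). Leaving out single libraries gave 3150 to 3911 called genes (1343 to 1935 higher, 1659 to 2060 lower). Genes differing from rescued animals numbered 763 with no filter on low counts, 958 by DESeq2 and 93 to 745 with 1 library left out, and genes differing from mutants 5 with no filter and 2 by DESeq2. No gene called in the main comparison was called in the other direction under any alternative, and DESeq2 called 5057 genes. Scaling by library size alone put the median of all genes at -0.10 (1603 higher, 2669 lower). With numbers of replicates as a replicate block, 3824 genes were called (1867 higher, 1957 lower), 3524 of them shared. Same-numbered libraries correlated at 0.211, 0.454 and -0.143 for replicates 2, 3 and 4. The 20°C replicates 2 and 3 correlated best with their own number, and 20°C replicate 4 with 37°C replicate 2. Whether the numbers pair the samples was thus left undecided, and the main fit did not use them. Of 2371 values of described genes under the alternatives, 2273 kept direction and side of the threshold, 96 lost the call and 2 (W06A11.1) gained it. Of the medians of lists, 661 stayed within the spread of the 37°C libraries and 119 moved past it. The cause of these shifts was not tested. Promoter motifs were not searched because no promoter table was used here. Most piRNA, tRNA and chemoreceptor loci fell under the filter. With no filter 68 of 4036, 35 of 207 and 86 of 992 of them were called higher, beside 2603 of all 28680 genes tested. Against that share the piRNA loci were lower, the chemoreceptors close and only the tRNA loci higher.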
